A study of Homo sapiens and Mus musculus with 12 samples.

Results

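The genes described here are 4 dual-specificity phosphatases (DUSPs) and 1 SPRED protein gene, Dusp1, Dusp2, Dusp5, Dusp6 and Spred1 in mouse and their counterparts DUSP1, DUSP2, DUSP5, DUSP6 and SPRED1 in human. They were taken by symbol and are 5 of 22021 genes listed in mouse and 5 of 18304 genes listed in human. All 5 passed the filter on low counts in each species and belong to the 13189 mouse and 12727 human genes tested. RNA-seq compared splenic NK cells of WT mice with those of KO mice, and NK92MI cells, a human line of NK origin engineered to produce interleukin-2, treated with BIX-01294 (BIX) or with the solvent DMSO. There were 3 libraries per group. The WT mice carried loxP sites around part of Ehmt2 on both chromosomes, and the KO mice carried the same alleles together with Ncr1-iCre, a Cre recombinase under the NKp46 gene that is active in NK cells and a few related lymphocytes. The mice were C57BL/6J animals described as age- and sex-matched, 8 to 12 weeks old. The titles call the KO samples EHMT2-KO while their genotype label reads Ezh2-KO, and they were grouped by the titles. BIX-01294 inhibits EHMT2, the methyltransferase that places H3K9me2. In functional assays on NK92MI cells it was used at 0.25 μM for 5 days, and the labels do not state dose or time for the sequenced cultures. All NK92MI libraries come from 1 line, and the labels do not say whether its replicates were separate cultures, so the p-values for it measure the spread between these libraries.

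MAP kinases (ERK, p38 and JNK) carry signals from cytokine and activating receptors of NK cells to the nucleus, and each is active only while a threonine and a tyrosine of its activation loop are phosphorylated. DUSPs of the MAP kinase phosphatase class remove both phosphates, and several of their genes are themselves switched on by the kinases, so that they act as negative feedback. DUSP1 is an inducible nuclear enzyme that acts mainly on p38 and JNK. DUSP2 is a nuclear enzyme abundant in leukocytes. DUSP5 is nuclear and selective for ERK, and DUSP6 is its cytoplasmic counterpart. SPRED1 works further upstream, at the membrane, where it brings the RAS inactivator neurofibromin to RAS.

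The promoters of 4 of the 5 human genes were at hand in RefSeq sequence of GRCh38.p14, each as a window of 300 bases from 250 before the start of the gene to 50 after it. Those of DUSP1, DUSP2 and DUSP6 are shown because these genes of one enzyme class gave log2 fold changes of different sign under BIX. Capitals mark a match to the cyclic AMP response element TGACGTCA or to the E-box CACGTG. DUSP1 lies on the minus strand at chr5:172771146-172771445, DUSP2 on the minus strand at chr2:96145391-96145690 and DUSP6 on the minus strand at chr12:89352452-89352751.
DUSP1: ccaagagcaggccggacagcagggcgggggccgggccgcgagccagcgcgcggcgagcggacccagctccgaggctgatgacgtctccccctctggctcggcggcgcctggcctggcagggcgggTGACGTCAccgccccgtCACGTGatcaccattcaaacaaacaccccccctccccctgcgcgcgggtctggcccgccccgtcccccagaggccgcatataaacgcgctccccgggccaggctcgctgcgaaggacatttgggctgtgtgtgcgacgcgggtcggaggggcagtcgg
DUSP2: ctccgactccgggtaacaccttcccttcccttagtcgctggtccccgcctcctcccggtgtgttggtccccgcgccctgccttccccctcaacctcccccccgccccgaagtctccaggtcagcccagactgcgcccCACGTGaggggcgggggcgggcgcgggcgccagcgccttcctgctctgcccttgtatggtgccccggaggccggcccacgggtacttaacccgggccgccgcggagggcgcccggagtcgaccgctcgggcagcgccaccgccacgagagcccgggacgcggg
DUSP6: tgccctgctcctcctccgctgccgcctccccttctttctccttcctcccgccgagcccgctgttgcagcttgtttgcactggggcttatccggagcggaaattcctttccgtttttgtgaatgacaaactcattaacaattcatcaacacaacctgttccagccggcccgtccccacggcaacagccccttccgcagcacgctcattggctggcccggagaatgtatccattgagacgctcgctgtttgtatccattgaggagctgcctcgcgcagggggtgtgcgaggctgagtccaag

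The windows were searched on both strands for 6 motifs. The element TGACGTCA stood in DUSP1 at position −125 counted from the start of the gene and in none of the other 3 windows, and 1.85% of the 35116 promoter windows held it. The shorter TGACG, which TGACGTCA contains on each strand, matched 4 times in DUSP1 and in no other window, against 24.6% of all windows with at least 1 match. CACGTG stood in DUSP1 at −108 and in DUSP2 at −113, and 7.26% of all windows held it. The AP-1 site TGANTCA (7.71% of all windows), the ETS core CCGGAA (17.2%) and the CArG box of serum response factor (1.29%) had no match in the DUSP1, DUSP2, DUSP6 or SPRED1 window. These are matches of letters and not measured binding.

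Totals lay between 25891680 counts (WT replicate 2) and 37438868 counts in mouse and between 16579469 and 17165446 in human. Levels are given as TMM-normalized CPM, a gene's counts scaled to the library total, and the tests are edgeR's quasi-likelihood test with Benjamini-Hochberg adjustment over all genes tested. Calls needed an adjusted p below 0.01 together with a fold change beyond 0.5 on the log2 scale in either direction. The targeted gene Ehmt2 was at 282 ± 5.94 CPM (SD, n = 3) in WT and 150 ± 18.1 CPM (SD, n = 3) in KO NK cells. The 11 pan-NK markers at hand all had positive log2 fold changes, though the groups overlapped for Ncr1, Il2rb, Itga2 and Eomes, and their summed level was 10296 to 12096 CPM in KO against 5404 to 9199 CPM in WT. Most markers of other leukocytes had negative log2 fold changes. In these bulk libraries fewer cells of a type and less RNA per cell cannot be told apart.

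The first comparison asks how the feedback genes differ in NK cells without intact Ehmt2. With edgeR's quasi-likelihood test none of the 5 was called, nor was the targeted gene Ehmt2 (log2 fold change −0.91, adjusted p = 0.0162). Over all genes tested, 0% were called higher and 0% lower. These counts depended on the tool and on 1 library: DESeq2 called Dusp2 and, over all genes, 396 higher and 1099 lower, and edgeR without WT replicate 2 called Dusp2 and Spred1 and 417 genes higher and 746 lower. Dusp2 was nearest to the threshold, with levels 1.59-fold those of WT in KO NK cells. At an unadjusted p under 0.05 there were 4 of the 5 genes, against 35.8% of all genes. Dusp2 and Dusp5 lay higher in each KO library than in each WT library, a separation that 19.1% of genes had, and Dusp6 lay lower in each, as did 19.3% of genes. Dusp1 and Spred1 had negative log2 fold changes, but their groups overlapped.

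Dusp2 (ENSMUSG00000027368.6; chromosome 2 of GRCm38 from 127336159 to 127338376, plus strand) had 122, 162 and 141 CPM in WT replicates 1, 2 and 3, and 225, 224 and 226 CPM in the corresponding KO libraries. The KO libraries were nearly equal, whereas WT replicate 2 lay nearest to them. This gave a log2 fold change of 0.67 (95% interval 0.42 to 0.93, standard error 0.11, adjusted p = 0.0275). It was the sole member past an adjusted p of 0.05 with the same fold threshold, which 2.82% of all genes passed as higher and 6.69% as lower. Its adjusted p moved to 0.00273 without WT replicate 2 and to 0.131 without KO replicate 3, and DESeq2, which the authors used, gave 8.18e-06. Scaling the libraries to the pan-NK markers turned its log2 fold change to −0.13 (adjusted p = 0.632). That scaling moved the median of all genes to −0.82, and relative to this median Dusp2 stood at 0.69. Such a scaling shifts all genes by about the same amount. A value near the unscaled 0.67 therefore follows by construction and is no separate evidence. The pan-NK list is not a neutral reference, since it holds Prf1, Il2rb and Tbx21, which the paper reports as higher in KO by RT-qPCR.

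Dusp5 (ENSMUSG00000034765.6; chromosome 19 from 53529109 to 53542431, plus strand) stood at 159, 181 and 152 CPM in WT and at 193, 193 and 191 CPM in KO NK cells. The groups did not overlap, but the gap between WT replicate 2 and the KO libraries was small. Its log2 fold change of 0.23 (95% interval 0.03 to 0.43, standard error 0.09, adjusted p = 0.103) did not pass the threshold. With scaling to the pan-NK markers it was −0.58, or 0.24 above the median gene, by construction near the unscaled value. An antisense gene overlaps Dusp5 on the other strand, and the strand setting of the counting is not given in the sources used here, so reads of both cannot be told apart.

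Dusp6 (ENSMUSG00000019960.8; chromosome 10 from 99263231 to 99267489, plus strand) was at 80.0, 75.5 and 84.3 CPM in WT and at 66.5, 70.5 and 73.9 CPM in KO NK cells. All KO libraries lay below all WT libraries, by little. Its log2 fold change was −0.19 (95% interval −0.38 to 0.01, standard error 0.08, adjusted p = 0.152).

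Dusp1 (ENSMUSG00000024190.7; chromosome 17 from 26505590 to 26562128, minus strand) varied most among libraries of 1 genotype. It was at 72.7, 50.2 and 95.9 CPM in WT and at 60.9, 31.4 and 34.7 CPM in KO NK cells. KO replicate 1 lay above WT replicate 2, so the groups overlapped. Between genotypes the log2 fold change was −0.79 (95% interval −1.49 to −0.08, standard error 0.30, adjusted p = 0.110), and it lay between −1.15 and −0.54 with each library left out in turn. The gene model at these coordinates overlaps Ergic1 on the other strand. The main Dusp1 transcript of 4 exons, from 26505590 to 26508519, does not overlap Ergic1.

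Spred1 (ENSMUSG00000027351.14; chromosome 2 from 117121374 to 117182279, plus strand) was at 32.6, 18.1 and 28.0 CPM in WT and at 17.4, 14.5 and 19.4 CPM in KO NK cells. WT replicate 2 lay among the KO libraries and the other WT libraries lay above them. Its KO minus WT log2 fold change was −0.62 (95% interval −1.12 to −0.11, standard error 0.22, adjusted p = 0.0894). Without WT replicate 2 it was −0.82 and passed the threshold (adjusted p = 0.00822), and without KO replicate 2 it was −0.43 (adjusted p = 0.253).

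**Figure D1:**
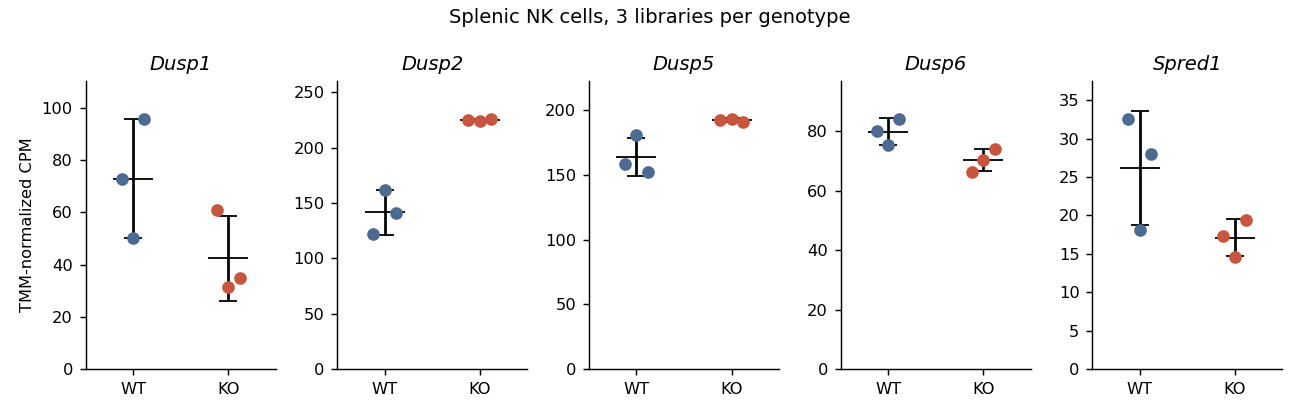
TMM-normalized CPM (vertical axes, from 0) of the 5 genes in 3 WT and 3 KO libraries of mouse splenic NK cells, with points for libraries and bars for the mean ± SD. Dusp2 lies at 122 to 162 CPM in WT and at 224 to 226 CPM in KO, and with scaling to the pan-NK markers its log2 fold change turns to −0.13, where the median of all genes is −0.82, whereas the Dusp1 and Spred1 groups overlap.

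Markers of other leukocytes varied among the libraries in part as Dusp1 and Spred1 did. Of the 10 neutrophil markers, whose tested members all had negative log2 fold changes, the summed level was 441, 166 and 1383 CPM in WT and 186, 29.5 and 30.6 CPM in KO. Dusp1 ranked the 6 libraries in the same order as this sum, from WT replicate 3 down to KO replicate 2. The order is not particular to neutrophil markers. The B cell sum differed from it only by a swap of WT replicate 2 and KO replicate 1. The T cell sum differed only by a swap of WT replicates 1 and 3. Fos, an immediate early gene named after its values were seen, had nearly that order, at 78.6, 49.1 and 76.9 CPM in WT. In KO it was at 64.8, 37.4 and 29.0 CPM. Jun, another such gene, did not follow it, at 83.7, 83.1 and 82.0 CPM in WT. In KO Jun was at 113, 85.1 and 58.9 CPM. Of the 12 macrophage and monocyte markers 11 had negative log2 fold changes, and their sum was 7059, 2908 and 5263 CPM in WT and 2851, 1737 and 2332 CPM in KO. Spred1 was highest in the same pair of WT libraries and lowest in the same KO library as the macrophage sum. The neutrophil, B cell and T cell sums shared that pair and that lowest library. Between them the orders differed. Spred1 fell from KO replicate 3 over WT replicate 2 to KO replicate 1, the macrophage sum from WT replicate 2 over KO replicate 1 to KO replicate 3. The 10 B cell markers all had negative log2 fold changes, at 457 to 1385 CPM in sum in WT and 37.3 to 425 CPM in KO. All of these markers had counts in at least 1 library, and in KO the neutrophil genes Ly6g, Elane, Camp and Retnlg were at 0 in at least 1 library. The part of these cells, or of the handling of cells, in the Dusp1 and Spred1 values was not tested. Among the WT libraries Dusp2 and Dusp5 were highest in replicate 2, which also had the highest pan-NK sum (9199 CPM). In KO replicates 1, 2 and 3 that sum was 10296, 12096 and 11914 CPM. There Dusp2 (225, 224 and 226 CPM) and Dusp5 (193, 193 and 191 CPM) hardly varied.

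**Figure D2:**
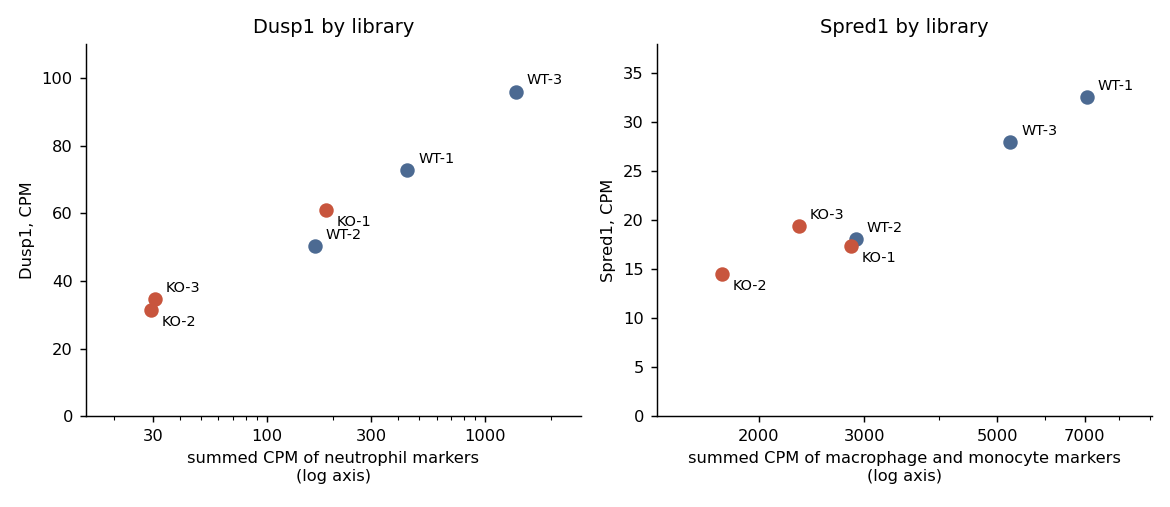
Left, Dusp1 (CPM, vertical axis) against the summed CPM of 10 neutrophil markers (log axis), and right, Spred1 against that of 12 macrophage and monocyte markers, with 1 point per mouse library, blue for WT and red for KO. Dusp1 runs from 31.4 CPM in KO replicate 2 to 95.9 CPM in WT replicate 3 in the order of the neutrophil sum. The B cell and T cell sums nearly share that order. WT replicate 2 lies among the KO libraries for Spred1.

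The second comparison asks how the same genes differ in NK92MI cells when EHMT2 is inhibited. Of the 5 genes DUSP5 and DUSP1 rose, while 6.24% of all genes were called higher and 5.43% lower. DUSP5 was 1.99-fold higher with BIX (95% interval 1.81 to 2.19). DUSP2 and DUSP6 lay lower in each BIX library than in each DMSO library and missed a threshold, and SPRED1 overlapped between the groups. Separation without overlap was found upwards in 24.1% and downwards in 23.9% of all genes, so that it is common here. EHMT2 itself was at 57.7 ± 3.66 CPM (SD, n = 3) with DMSO and 38.5 ± 2.39 CPM (SD, n = 3) with BIX.

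DUSP5 (ENSG00000138166.6; chromosome 10 of GRCh38 from 110497907 to 110511533, plus strand) was at 217, 219 and 213 CPM with DMSO and at 431, 403 and 458 CPM with BIX. The gap between the groups was several times the spread within either. Its log2 fold change was 0.99 (adjusted p = 1.37e-07, standard error 0.06), and its p-value ranked 38 among the 12727 genes. With each library left out in turn the log2 fold change stayed between 0.95 and 1.04, with an adjusted p no higher than 1.18e-05.

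DUSP1 (ENSG00000120129.6; chromosome 5 from 172768096 to 172771195, minus strand) had few counts, 165, 108 and 97 with DMSO and 190, 171 and 220 with BIX. These are 9.60, 6.31 and 5.74 CPM against 11.6, 10.1 and 13.0 CPM. The groups did not overlap, but the highest DMSO library came within 1 CPM of the lowest BIX library. With a log2 fold change of 0.67 (95% interval 0.29 to 1.06, standard error 0.18, adjusted p = 0.00980) it was just inside the threshold. The call was lost without control library 2 (adjusted p = 0.0549), control library 3 (adjusted p = 0.0569), BIX replicate 1 (adjusted p = 0.0294) or BIX replicate 3 (adjusted p = 0.0151), and with only genes of a mean CPM of at least 1 kept (adjusted p = 0.0103), always with a positive log2 fold change. A long non-coding RNA gene, ENSG00000253736, overlaps DUSP1 on the other strand.

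DUSP2 (ENSG00000158050.5; chromosome 2 from 96143169 to 96145440, minus strand) was at 8.03, 8.59 and 8.70 CPM with DMSO and at 4.81, 6.11 and 6.32 CPM with BIX, from 79 to 147 counts a library. The BIX libraries were all below the DMSO libraries. Its log2 fold change was −0.55 (95% interval −0.88 to −0.23, standard error 0.15), and the adjusted p of 0.0107 just missed 0.01. It passed without BIX replicate 2 (adjusted p = 0.00836), without BIX replicate 3 (adjusted p = 0.00759) or with library totals in place of TMM (adjusted p = 0.00904), and without BIX replicate 1 its log2 fold change was −0.43 (adjusted p = 0.0598).

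DUSP6 (ENSG00000139318.8; chromosome 12 from 89347235 to 89352501, minus strand) was at 54.4, 55.5 and 55.0 CPM with DMSO and at 47.4, 43.1 and 48.4 CPM with BIX. The DMSO libraries were nearly equal and lay above all BIX libraries. A log2 fold change of −0.25 (95% interval −0.41 to −0.09, standard error 0.07, adjusted p = 0.0182) lay under the fold threshold. A long non-coding RNA gene, ENSG00000274021, overlaps DUSP6 on the other strand.

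SPRED1 (ENSG00000166068.13; chromosome 15 from 38252836 to 38357249, plus strand) was at 21.9, 18.1 and 22.2 CPM with DMSO and at 21.4, 24.5 and 21.8 CPM with BIX. The groups overlapped. The 95% interval of the log2 fold change, −0.11 to 0.36, included 0 (estimate 0.12, standard error 0.11, adjusted p = 0.403).

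**Figure D3:**
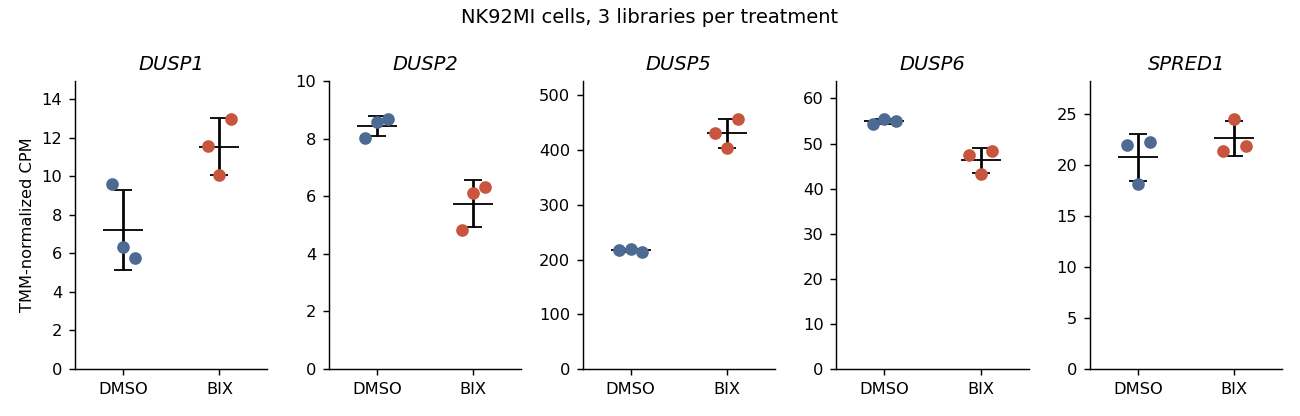
TMM-normalized CPM (vertical axes, from 0) of the 5 genes in 3 DMSO and 3 BIX libraries of NK92MI cells, with points for libraries and bars for the mean ± SD. DUSP5 lies at 213 to 219 CPM with DMSO and at 403 to 458 CPM with BIX, while SPRED1 overlaps.

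Side by side, the log2 fold changes had the same sign in mouse and human for Dusp5 (0.23 and 0.99) and Dusp6 (−0.19 and −0.25) and opposite signs for Dusp1 (−0.79 and 0.67), Dusp2 (0.67 and −0.55) and Spred1 (−0.62 and 0.12). With scaling to the pan-NK markers, which moved the median of all mouse genes to −0.82, the signs of Dusp2 and Dusp5 turn. Relative to that median they are at 0.69 and 0.24. Such a scaling shifts all genes by about the same amount, so these values follow by construction and are no separate evidence. The difference between the experiments was not tested, since gene loss in primary cells and a drug in a cell line are different contrasts.

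**Figure D4:**
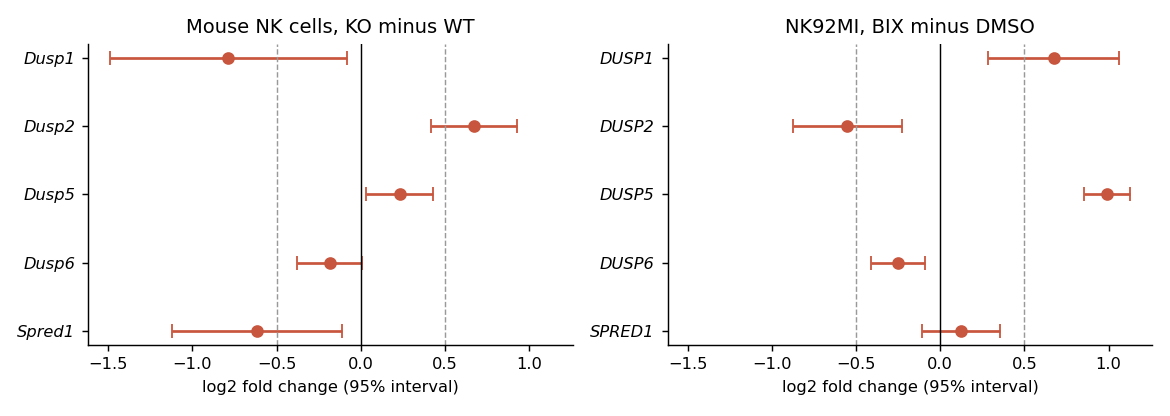
Log2 fold changes (horizontal axis) with 95% intervals from edgeR for KO against WT mouse NK cells (left) and BIX against DMSO in NK92MI cells (right), with dashed lines at the fold threshold of 0.5 in each direction. DUSP5 (0.99) has an interval wholly beyond the line, and the mouse values of Dusp2 (0.67) and Dusp5 (0.23) turn negative with scaling to the pan-NK markers, where the median of all genes is −0.82.

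Set against transcript length, as CPM per kilobase of the main annotated transcript, Dusp2 and Dusp5 were the most abundant of the 5 in mouse WT NK cells, at 87.4 ± 12.4 and 66.3 ± 6.02 (SD, n = 3). Dusp1 (36.7 ± 11.5) and Dusp6 (28.6 ± 1.57) followed, and Spred1 was lowest at 4.36 ± 1.23. The ranges of Dusp1 and Dusp6 overlapped, whereas those of the other neighbours in this order did not. In KO NK cells Dusp2 stood at 139 ± 0.690 CPM per kilobase and Dusp5 at 77.8 ± 0.529, and Dusp6 (25.1 ± 1.33) now had a higher mean than Dusp1 (21.3 ± 8.14), again with overlapping ranges. In NK92MI cells with DMSO, DUSP5 was far ahead at 87.5 ± 1.22 CPM per kilobase. DUSP6 was at 15.2 ± 0.156, DUSP2 at 5.01 ± 0.213, DUSP1 at 3.59 ± 1.04 and SPRED1 at 2.85 ± 0.318, and the ranges of DUSP1 overlapped with those of DUSP2 and of SPRED1. With BIX, DUSP5 was at 163 to 185 CPM per kilobase and DUSP6 at 12.8 ± 0.762, and DUSP1 (5.73 ± 0.730) then lay above DUSP2 (3.41 ± 0.485) without overlap, while DUSP2 and SPRED1 (3.11 ± 0.233) overlapped. As a share of the summed level per kilobase of the 5 genes, DUSP5 made up 76.1%, 77.3% and 76.6% with DMSO and 87.6%, 87.2% and 87.4% with BIX. The corresponding share of Dusp2 was 35.8%, 43.8% and 37.5% in WT and 50.7%, 53.2% and 52.9% in KO NK cells.

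Ratios of counts within a library do not depend on the scaling between libraries, and all 10 pairs were compared in each species. The ratio of Dusp2 to Dusp6 was 1.52, 2.14 and 1.67 in WT and 3.39, 3.18 and 3.06 in KO NK cells. That of Dusp2 to Dusp5 was 0.767, 0.895 and 0.922 in WT and 1.17, 1.16 and 1.18 in KO. Both ratios were higher in each KO library, as were Dusp2 to Spred1 and Dusp5 to Dusp6, while Dusp1 to Dusp2 was lower in each (p = 0.1 by a two-sided exact permutation test, the smallest possible with 3 libraries a group, and 0.2 after adjustment over the 10 pairs). In NK92MI cells the ratio of DUSP5 to DUSP6 was 3.997, 3.945 and 3.875 with DMSO and 9.09, 9.35 and 9.47 with BIX. The ratio of DUSP1 to DUSP2 was 1.20, 0.735 and 0.660 with DMSO and 2.41, 1.64 and 2.06 with BIX. Neither of these ratios overlapped between the groups (exact permutation p = 0.1, adjusted p = 0.125). The same held for 8 of the 10 pairs in all, so it is common among these pairs. DUSP1 to DUSP5 and DUSP1 to SPRED1 overlapped.

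The remaining MAP kinase phosphatases were also measured. With BIX, DUSP10 and DUSP16, phosphatases that prefer p38 and JNK, were called higher. That is 2 of the 3 tested, against 6.24% of all genes. DUSP10 was at 43.3 ± 1.85 CPM (SD, n = 3) with DMSO and 107 ± 3.07 CPM with BIX, a log2 fold change of 1.30 (adjusted p = 2.17e-08, standard error 0.07). DUSP16 was at 43.6 ± 0.617 and 70.9 ± 2.15 CPM, with a log2 fold change of 0.70 (adjusted p = 5.53e-06, standard error 0.07). The median of the 3 genes was 0.70 against −0.01 over all genes tested. In KO NK cells 0 of 5 tested were called, as were 0% of all mouse genes, with a median of −0.38 against 0.01 over all genes. Of the 5, 2 had positive and 3 negative log2 fold changes, among the latter Dusp4 and Dusp9, at 2.36 and 4.94 CPM in WT. The summed level of the list was 145 to 153 CPM in WT and 156 to 165 CPM in KO. The following genes were named after their values were seen. Dusp7 was at 80.0 ± 4.44 CPM in WT and 104 ± 5.45 CPM in KO, without overlap (log2 fold change 0.37, adjusted p = 0.0387). The counterparts of DUSP10 and DUSP16 had log2 fold changes of 0.49 for Dusp10 (adjusted p = 0.0400) and −0.38 for Dusp16 (adjusted p = 0.0641).

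Of the other SPRED and Sprouty genes, inhibitors of RAS signalling at the membrane, 1 of 3 tested was called with BIX. Over all genes, 6.24% were called higher. SPRED3 rose from 6.15 ± 0.743 to 11.4 ± 1.17 CPM (log2 fold change 0.89, standard error 0.14, adjusted p = 0.000341). The median of the 3 was 0.16. In mouse 0 of 5 tested met the adjusted p of 0.01, or of 0.05, together with the fold change of 0.5, and the median was 0.07. Of all mouse genes 0% were called at 0.01, and 2.82% were called higher and 6.69% lower at 0.05. Spry2, named after its values were seen, was at 72.3 ± 22.9 CPM in WT and 120 ± 17.98 CPM in KO NK cells, without overlap (log2 fold change 0.74, adjusted p = 0.0612).

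The cascades upstream of these phosphatases held 1 call each with BIX, where 6.24% of all genes tested were called higher and 5.43% lower. In the RAS-ERK cascade 1 of 25 genes tested was called with BIX, RASGRP3, an activator of RAS, at 48.8 ± 1.93 and 76.9 ± 4.01 CPM (log2 fold change 0.66, adjusted p = 1.42e-05), and the median was 0.07. In the p38 and JNK cascades 1 of 19 was called, MAP2K6, a kinase that activates p38, which fell from 3.24 ± 0.270 to 0.576 ± 0.0939 CPM (log2 fold change −2.48, standard error 0.29, adjusted p = 2.17e-05), with a list median of 0.00. MAP2K3, another kinase that activates p38, named after its values were seen, was at 78.9 ± 2.53 CPM with DMSO and 72.5 ± 5.98 CPM with BIX, with overlap (log2 fold change −0.12, adjusted p = 0.217). In KO NK cells no gene of the 26 in the RAS-ERK cascade or the 20 in the p38 and JNK cascades was called at an adjusted p of 0.01 or of 0.05 with the same fold change, with medians of 0.07 and −0.04. Of all mouse genes 0% were called at 0.01, and 2.82% were called higher and 6.69% lower at 0.05. Counts of these lists under the other settings are given with the dependence on the processing.

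The immediate early genes, transcription factors and other genes that MAP kinases switch on within minutes, held more calls in NK92MI cells. Of 18 tested, 8 were called higher and 0 lower, against 6.24% and 5.43% of all genes. The median log2 fold change of the 18 was 0.52. The 6 with the smallest adjusted p were JUN (1.76), KLF6 (0.91), IER5 (1.21), FOSL2 (0.83), JUNB (1.35) and ATF3 (1.34), all log2 fold changes. JUN, a subunit of AP-1, rose from 72.8 ± 4.74 to 246 ± 17.3 CPM (adjusted p = 3.37e-09). FOS, the partner of JUN in AP-1, named after its values were seen, lay lower in each BIX library, at 5.15 ± 1.02 CPM with DMSO and 3.14 ± 0.737 CPM with BIX, and was not called (log2 fold change −0.72, adjusted p = 0.0206). FOSB (−0.18) and EGR1 (−0.09) had overlapping groups. The sum over the list lay at 1699 to 1753 CPM with DMSO and at 2641 to 2883 CPM with BIX. Such genes also respond to the handling of cells, and the part of handling was not tested. Heat shock genes, another group that handling can move, had 1 call of 9, HSPA8, which fell (log2 fold change −0.59, adjusted p = 3.39e-06), and a median of −0.29. The stress-inducible HSPA1A, HSPA1B and HSPB1 are not among the human genes listed, so the heat shock result does not cover them. In KO NK cells 0 of 21 immediate early and 0 of 11 heat shock genes were called at either adjusted p, with medians of 0.06 and −0.01. Of all mouse genes 0% were called at 0.01, and 2.82% were called higher and 6.69% lower at 0.05. Hspa1a and Hspa1b, named after their values were seen, were highest in KO replicate 1, at 8.10 and 16.2 CPM. In any other mouse library they were at most at 2.52 and 4.35 CPM.

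**Figure D5:**
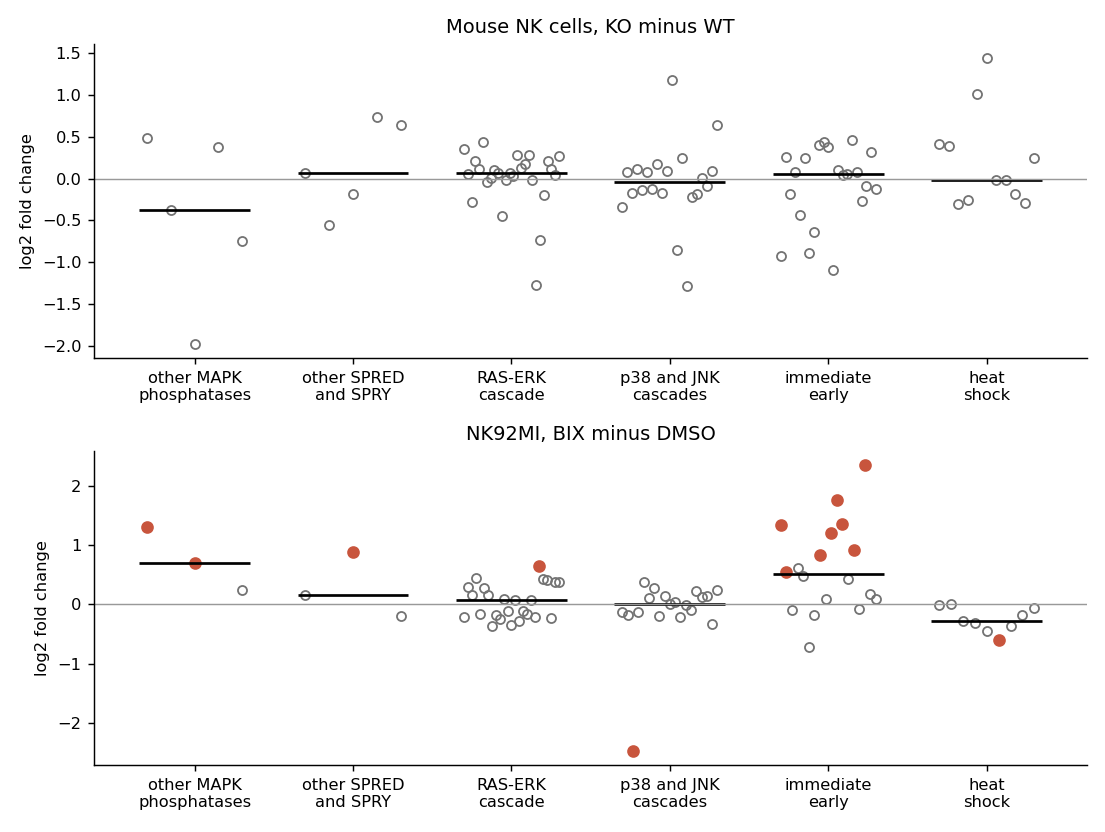
Log2 fold changes (vertical axes) of the tested genes of 6 lists in KO against WT mouse NK cells (top) and BIX against DMSO in NK92MI cells (bottom), with filled points for called genes, open points for the rest and bars for list medians. The immediate early genes have 8 filled points and a median of 0.52 with BIX. The mouse panel has no filled point, and 0% of all mouse genes were called.

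The genes whose pattern over the 6 libraries was most like each member were found by the root mean square difference of centred log2 CPM. For DUSP5 they were APOL3 (0.03), at 54.1 to 56.4 CPM with DMSO and 107 to 114 CPM with BIX, and IGF1 (0.04). For DUSP1 they were CUBN (0.09) and KRTCAP3 (0.10), for DUSP2 SCML4 (0.05) and CHFR (0.05), for DUSP6 PABPC4 (0.01) and GYG1 (0.01), and for SPRED1 MTRF1 (0.02) and LINC00910 (0.03). In mouse Dusp2 was most like Zpbp (0.05) and Alkbh2 (0.05), the latter at 9.20, 13.2 and 10.3 CPM in WT and 17.9, 17.9 and 17.8 CPM in KO NK cells. Dusp5 was most like Zfp330 (0.02) and Gpat4 (0.02), and Dusp6 was most like Atf6 (0.02) and Ttyh3 (0.03). Dusp1 was most like Sirpb1c (0.07), a receptor gene of myeloid cells, and Msrb1 (0.07). Among the genes nearest to Spred1 was Ctsc (0.07). With 6 libraries in 2 groups, closeness of this kind rests mostly on the size of the group difference.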

How the data were processed

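The authors trimmed reads with fastp 0.23.4, aligned them with STAR 2.7.11b to GRCm38/mm10 or GRCh38/hg38, allowing 2 mismatches, and counted them per gene with HTSeq 2.0.3. The deposited values are un-normalized raw counts listed by gene symbol. Annotation release and strand setting are not given in the sources used here. Samples were grouped by titles, and the human control columns cannot be matched to DMSO sample numbers. Each species was fitted separately in R 4.3.3 with edgeR 4.0.16 (TMM, filterByExpr, quasi-likelihood test), tested first on simulated data with 200 changed genes. DESeq2 1.42.0 and limma 3.58.1 were alternatives. Genes were named as all members, listed genes that were called (at most 6 per list) and the 2 nearest in pattern, of which 1 is not reported here. Members and lists were chosen with earlier results of these data known. Positions and transcript lengths came from GENCODE M21 and 44, which need not be the authors' releases. A 95% level was used for intervals. Same-numbered mouse libraries did not deviate together in every pair (r = 0.28, 0.35 and −0.19), so the numbers were not taken as pairs.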

Additional observations from a re-analysis of the deposited data

How the results depend on the processing

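In mouse 0 members were called, also with DESeq2 size factors in edgeR, library totals, no filter on low counts, a mean CPM of at least 1, robust dispersion or limma-voom. DESeq2 called 1 (Dusp2), an adjusted p under 0.05 in place of 0.01 called 1 (Dusp2), and scaling to the pan-NK list called 3 (Dusp1, Dusp6 and Spred1, all lower). Leaving out each library gave 0 to 2, with 2 (Dusp2 and Spred1) without WT replicate 2. With the replicate number as a block 1 member was called (Dusp2, adjusted p = 0.00631). Under the pan-NK scaling Dusp2 turned to −0.13 and Dusp5 to −0.58, with the median of all genes at −0.82. Over all mouse genes, 0 higher and 0 lower became 396 and 1099 with DESeq2, 417 and 746 without WT replicate 2, 237 and 582 with the block, 20 and 14 without the filter, and 19 and 3462 under the pan-NK scaling. The mouse lists, with 0 calls each, moved to 1 Sprouty or SPRED gene higher with DESeq2, without WT replicate 2 and with the block, to 1 RAS-ERK and 2 immediate early genes lower with DESeq2, and under the pan-NK scaling to 3 other phosphatases, 4 RAS-ERK, 8 p38 and JNK, 8 immediate early and 4 heat shock genes lower. In human 2 members were called, 1 (DUSP5) with a mean CPM of at least 1, and 1 to 2 with each library left out. DUSP5 was called and every human member kept its sign under all alternatives run. No paired analysis was possible in human because the control columns carry no sample numbers. Without a fold threshold 1571 human genes were higher and 1439 lower, against 794 and 691. There the RAS-ERK list had 6 higher and 2 lower, the p38 and JNK lists 1 and 2, and heat shock 5 lower. Leaving out control library 2, BIX replicate 1 or BIX replicate 2 gave 2, 2 and 3 RAS-ERK genes higher in place of 1, and 1 immediate early gene was lower without BIX replicate 3 or at an adjusted p under 0.05. Depth limits DUSP1 and DUSP2 in human, at 79 to 220 counts a library. Intervals measure spread between 3 libraries.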
